A study of Homo sapiens with 3 samples.

Results

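The genes described here encode the factors that hold RNA polymerase II in place shortly after it starts a transcript and the factors that let it go. The 10 members were chosen by gene symbol, with a rule that uses no measured value, out of the 58051 genes in the deposited counts: the subunits of the negative elongation factor NELF (NELFA, NELFB, NELFCD and NELFE), the subunits of DSIF (SUPT4H1 and SUPT5H), the kinase and cyclins of P-TEFb (CDK9, CCNT1 and CCNT2) and the P-TEFb inhibitor HEXIM1. All 10 were found. Total RNA of H9, an established human embryonic stem cell line, was sequenced in 3 replicates after depletion of ribosomal RNA. The cells were wild type, received no treatment and were grown on Vitronectin in a defined stem cell medium. There is a single condition, so every comparison is between genes or between replicates, and nothing in the labels says whether the replicates were separate cultures. H9 is 1 line, and its levels need not hold for other stem cells.

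On most genes of animals, RNA polymerase II pauses a short distance downstream of the promoter. DSIF and NELF bind the early elongation complex and hold it there. P-TEFb, made of the kinase CDK9 and a T-type cyclin, releases it by phosphorylating DSIF, NELF and the polymerase, after which NELF leaves and DSIF travels on as a positive factor. Much of the cell's P-TEFb is kept inactive in a particle that contains the noncoding RNA 7SK and a HEXIM protein, and it can be recruited from there by other factors, among them the super elongation complex. Protein activity, phosphorylation and pausing itself were not measured by these counts.

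The libraries held between 8655155 and 12024802 reads on genes. The 6 stem cell markers examined were all in the high class described below, from 259 TPM for SALL4 to 2576 TPM for LIN28A. Of 10 markers of other lineages, NEUROG2 and CDX2 had no read, 6 were in the low class (PAX6 in the medium class with canonical transcripts as lengths), and MIXL1 (22.3 TPM, mesoderm) and COL1A1 (14.6 TPM, fibroblasts) were the highest. The part of such cells in the levels below was not tested. In bulk RNA, fewer cells that express a gene and less RNA in each cell cannot be told apart.

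All 10 pausing and release genes were expressed, and all were in the high class. Levels are given as TPM, a share of transcripts, computed here by dividing counts by the summed length of a gene's exons (GENCODE 44, GRCh38) and scaling each replicate to the same total. Following the study's scheme, genes with a mean below 0.01 TPM were taken as nonexpressed and the others were split into 3 quantiles of low, medium and high expression. The high class began at 26.96 TPM, and 28.8% of the 19629 protein-coding genes were in it. Every member exceeded that boundary in each of the 3 replicates. Their means ran from 32.9 TPM (NELFA) to 134 TPM (NELFB), with a median of 64.8 TPM, beside a median of 60.7 TPM for all genes of the high class. Among protein-coding genes they stood between percentiles 74.9 and 94.3. With genes below 1 TPM taken as nonexpressed, 8 of the 10 were in the high class, and NELFA and CCNT2 were not. The high class then holds fewer genes, so the share of 28.8% does not apply to that count. No test was made on these counts. Counts per member and replicate lay between 370 and 2123 reads.

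**Figure D1:**
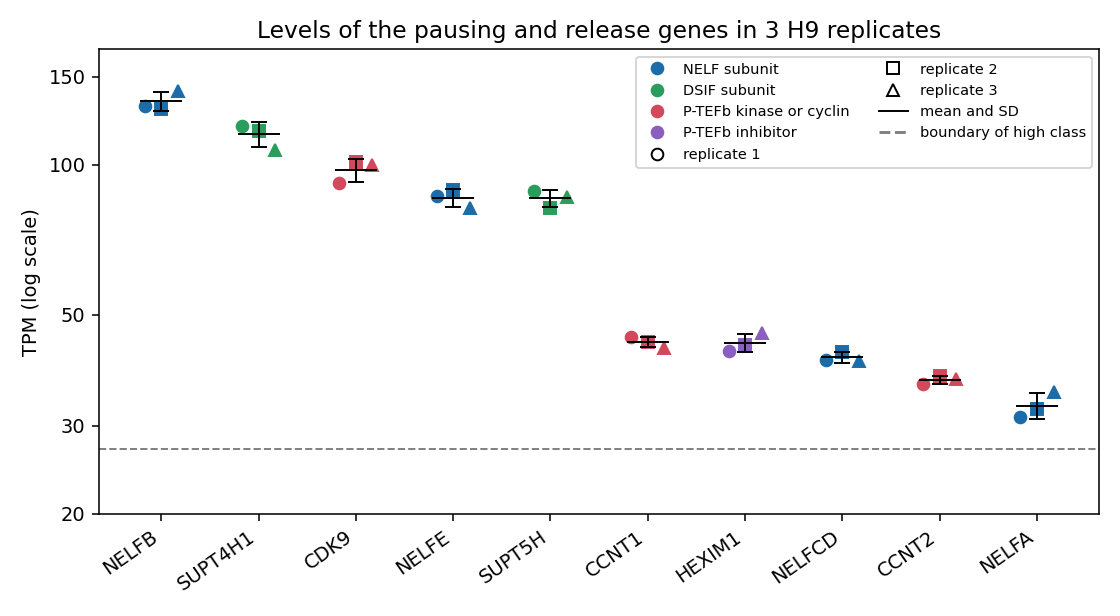
TPM (y axis, log scale) of each of the 10 genes (x axis, ordered by mean) in the 3 H9 replicates; symbols are replicates, colors are complexes, the black bars are the mean and SD, and the dashed line is the boundary of the high class at 26.96 TPM. A gap separates the upper 5 genes, with means from 85.6 to 134 TPM, from the lower 5, with means from 32.9 to 44.1 TPM.

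The NELF subunits were unequal in their transcript levels. NELF works as an assembly of its subunits: NELFA contacts the polymerase, NELFB and NELFCD form the core, and NELFE carries an RNA recognition motif. NELFB (ENSG00000188986, chromosome 9, 137255327 to 137273542, plus strand) was counted with 869, 992 and 792 reads, or 131, 129 and 140.5 TPM in replicates 1, 2 and 3, a mean of 134 ± 6.03 TPM (SD, n = 3). NELFE (ENSG00000204356, chromosome 6, 31952087 to 31959038, minus strand) had 597, 713 and 481 reads, or 86.6, 89.0 and 81.9 TPM, a mean of 85.8 ± 3.64 TPM (SD, n = 3). Every replicate of NELFB was above every replicate of NELFE. NELFCD (ENSG00000101158, chromosome 20, 58981208 to 58995133, plus strand) had 665, 805 and 565 reads, or 40.6, 42.2 and 40.4 TPM, a mean of 41.1 ± 1.01 TPM (SD, n = 3). NELFA (ENSG00000185049, chromosome 4, 1982717 to 2041903, minus strand) had 411, 496 and 394 reads, or 31.2, 32.4 and 35.1 TPM, a mean of 32.9 ± 1.99 TPM (SD, n = 3). The values of these 4 subunits did not overlap in any pair of genes. NELFB exceeded NELFA 4.21, 3.98 and 4.00 times in the 3 replicates, a mean ratio of 4.06 ± 0.126 (SD, n = 3).

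The size of this difference depended on the length by which counts were divided. NELFB has 1 annotated transcript, of 2540 bases, whereas the exons of all 15 transcripts of NELFA add up to 5057 bases, 2.30 times its canonical transcript (the one that the annotation marks as representative). For NELFCD this factor was 2.82 and for NELFE 1.83. With canonical transcripts as lengths, NELFE was the highest subunit at 94.9 ± 3.67 TPM, followed by NELFB at 80.7 ± 3.97, NELFCD at 69.8 ± 1.58 and NELFA at 45.7 ± 2.94 TPM (SD, n = 3 each). NELFA had the lowest mean among NELF subunits under each of the 3 lengths tried, but with the longest transcripts the ratio of NELFCD to NELFA was 1.09 ± 0.0750 (SD, n = 3) and 0.999 in replicate 3. With canonical transcripts the span from lowest to highest was 2.08 ± 0.197 fold.

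Both subunits of DSIF, the partner of NELF in pausing, were among the upper 5 members. SUPT4H1, which encodes the small subunit SPT4 (ENSG00000213246, chromosome 17, 58345175 to 58353093, minus strand), had 647, 738 and 495 reads, or 119.5, 117 and 107 TPM, a mean of 115 ± 6.54 TPM (SD, n = 3). SUPT5H, which encodes the large subunit SPT5 with the repeats that P-TEFb phosphorylates (ENSG00000196235, chromosome 19, 39436156 to 39476670, plus strand), had 1974, 2123 and 1641 reads, the most of any member, or 88.5, 81.9 and 86.3 TPM, a mean of 85.6 ± 3.37 TPM (SD, n = 3). All SUPT4H1 replicates were above all SUPT5H replicates, and the ratio of SUPT5H to SUPT4H1 was 0.748 ± 0.0536 (SD, n = 3). This direction was not independent of gene length: with canonical transcripts, SUPT5H stood at 120.3 ± 4.84 TPM against 96.7 ± 5.14 TPM for SUPT4H1, a ratio of 1.25 ± 0.0893 (SD, n = 3). The order of the DSIF transcripts was therefore not resolved by these counts.

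For P-TEFb, the transcript of the kinase was above that of either cyclin. CDK9 (ENSG00000136807, chromosome 9, 127785679 to 127790792, plus strand) had 718, 921 and 664 reads, or 91.8, 101 and 99.6 TPM, a mean of 97.5 ± 5.06 TPM (SD, n = 3). CCNT1, encoding cyclin T1, the partner most used by CDK9 in many cells (ENSG00000129315, chromosome 12, 48688458 to 48716998, minus strand), had 866, 986 and 704 reads, or 45.1, 44.2 and 43.0 TPM, a mean of 44.1 ± 1.05 TPM (SD, n = 3). CCNT2, encoding the alternative partner cyclin T2 (ENSG00000082258, chromosome 2, 134918235 to 134959342, plus strand), had 861, 1039 and 749 reads, or 36.4, 37.8 and 37.2 TPM, a mean of 37.1 ± 0.694 TPM (SD, n = 3). The cyclin genes collected more reads than CDK9 in every replicate but have exons of 7371 and 9081 bases against 3005, and per length each lay below CDK9 in every replicate.

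The ratio of CDK9 to the sum of both cyclins was 1.13, 1.23 and 1.24 in replicates 1, 2 and 3, a mean of 1.20 ± 0.0652 (SD, n = 3). It was 1.22 ± 0.0643 with canonical transcripts and 1.23 ± 0.0647 with the longest ones. Within the pair of cyclins, the ratio of CCNT1 to CCNT2 was 1.19 ± 0.0440 (SD, n = 3), and the replicates of the genes did not overlap. With canonical transcripts it was 0.984 ± 0.0364, with CCNT1 higher in replicate 1 and CCNT2 in the other replicates, so the order of the cyclins was not resolved either.

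HEXIM1, which holds P-TEFb inactive when bound to 7SK RNA, was below the kinase it inhibits. The gene (ENSG00000186834, chromosome 17, 45148475 to 45152099, plus strand) has a single exon of 3625 bases, so that every definition of its length is the same. It had the fewest reads of the members in every replicate, with 400, 477 and 370, or 42.4, 43.5 and 46.0 TPM, a mean of 44 ± 1.85 TPM (SD, n = 3). The ratio of HEXIM1 to CDK9 was 0.462, 0.429 and 0.462, a mean of 0.451 ± 0.0188 (SD, n = 3), and 0.373 ± 0.0155 with canonical transcripts. With these lengths HEXIM1, at 26.5 ± 1.22 TPM, lay at the boundary of the high class, which was then 26.42 TPM. Its neighbor and paralog HEXIM2 (chromosome 17) had 58, 57 and 52 reads, or 11.1, 9.38 and 11.7 TPM, a mean of 10.7 ± 1.19 TPM in the medium class. HEXIM1 exceeded HEXIM2 4.13 ± 0.440 times (SD, n = 3), and 2.96 ± 0.315 times with canonical transcripts. On the opposite strand of HEXIM2, ENSG00000267288 covers 51.1% of its exon length with 41, 45 and 43 reads and HEXIM2-AS1 covers 28.2% with 45, 73 and 46 reads, numbers close to those of HEXIM2 itself, and their part in its level was not tested. HEXIM1 and HEXIM2 together remained below CDK9, at 0.561 ± 0.0341 of its level.

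Members next to each other in the order of mean TPM were compared within replicates. Neighbors were taken as apart where the sign of their log2 ratio was the same in all 3 replicates and its mean exceeded 2 SD. Of the 9 neighboring pairs, 3 were apart. Another 4 had the same sign in all 3 replicates with a mean of less than 2 SD, such as CDK9 over NELFE at 0.18 ± 0.099. With the longest transcripts NELFE lay above CDK9, at 92.2 against 88.8 TPM, and with canonical ones at 94.9 against 71.2 TPM. NELFB over SUPT4H1 and HEXIM1 over NELFCD turned likewise with both lengths, and SUPT4H1 stayed above CDK9. Pairs were ordered by the means of these same replicates, so the sign of a mean log2 ratio was largely set beforehand. The widest step was from SUPT5H to CCNT1, with a mean log2 ratio of 0.95 ± 0.059 (SD, n = 3). NELFCD and CCNT2 differed by 0.15 ± 0.021 and CCNT2 and NELFA by 0.18 ± 0.081 on the log2 scale. The order of CCNT2 and NELFA turned with canonical transcripts, to 29.4 TPM for CCNT2 and 45.7 TPM for NELFA. It also turned with the longest transcripts, to 36.7 and 50.2 TPM, so this order was not resolved. NELFE and SUPT5H changed places between replicates, with log2 ratios of -0.03, 0.12 and -0.08, and so did CCNT1 and HEXIM1, with 0.09, 0.02 and -0.10. An exact two-sided permutation test by sign flips within replicates cannot give less than p = 0.25 with 3 replicates, so no neighboring pair could pass a threshold. NELFB, SUPT4H1, CDK9, NELFE and SUPT5H formed the upper 5 and the other 5 members the lower 5 with each of the 3 gene lengths, although CDK9, at 71.2 ± 3.80 TPM, and NELFCD, at 69.8 ± 1.58 TPM, differed by less than their SDs with canonical transcripts.

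**Figure D2:**
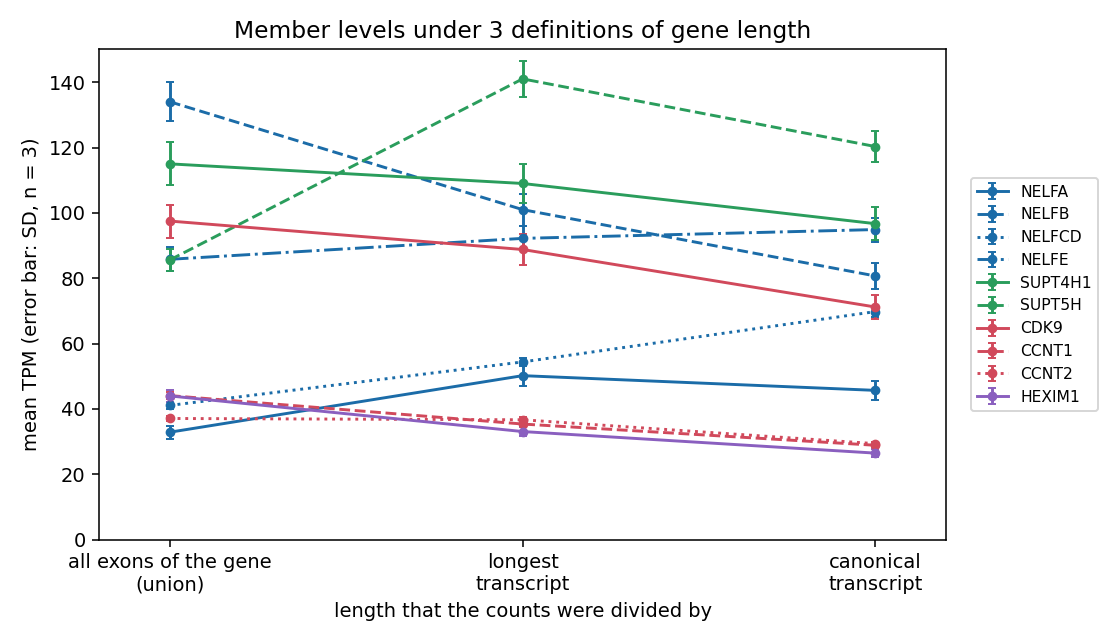
Mean TPM (y axis, from 0; error bars are SD, n = 3) of each member when counts are divided by the length of all exons, of the longest transcript or of the canonical transcript (x axis); colors are complexes and line styles are genes. SUPT5H moves from 85.6 to 141 and 120.3 TPM, NELFB from 134 to 101 and 80.7 TPM, and CCNT1, CCNT2 and HEXIM1 are the lowest 3 with either transcript length.

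The members varied little between replicates. Their coefficients of variation of TPM lay between 1.87% (CCNT2) and 6.04% (NELFA), with a median of 4.22%, beside a median of 5.03% for all genes of the high class. The SD of counts scaled to the library total (CPM) was compared with the SD that counting alone would give. It was larger for 6 of 10 members, by 1.79 times for SUPT5H, 1.68 times for NELFB, 1.62 times for CDK9 and 1.51 times for NELFA, and smaller for CCNT1 (0.359), NELFCD (0.583), CCNT2 (0.720) and NELFE (0.784). Counting error is that of reads, which PCR can copy, and is a lower limit. An SD from 3 replicates is itself uncertain, and whether any member varied more or less than counting alone gives was not tested.

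Replicate 3 was compared with the other replicates, beside the base composition of the transcripts. Its CPM was above the mean of the other replicates by 0.17 on the log2 scale for NELFA and by 0.14 for NELFB, whose canonical transcripts have a GC content of 59.8% and 63.4%. It was below by 0.11 for SUPT4H1, with a log2 ratio of -0.11 and a GC content of 47.7%, and at -0.02 and 0.03 for CCNT1 and CCNT2, which are poorest in GC at 40.3% and 37.0%. HEXIM1, at 48.3% GC, had 0.13 and NELFE, at 56.3% GC, had -0.07, and neither followed this order. Nor did the members poorest in GC: from CCNT2 to CCNT1 to SUPT4H1 the log2 ratio fell as GC content rose. Across the 10 members, Spearman's rho between GC content and the log2 ratio was 0.58 for replicate 3, -0.38 for replicate 2 and -0.19 for replicate 1. The points share the same libraries and are genes, not replicates, so no test was made. The part of GC content in these differences was not tested.

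**Figure D3:**
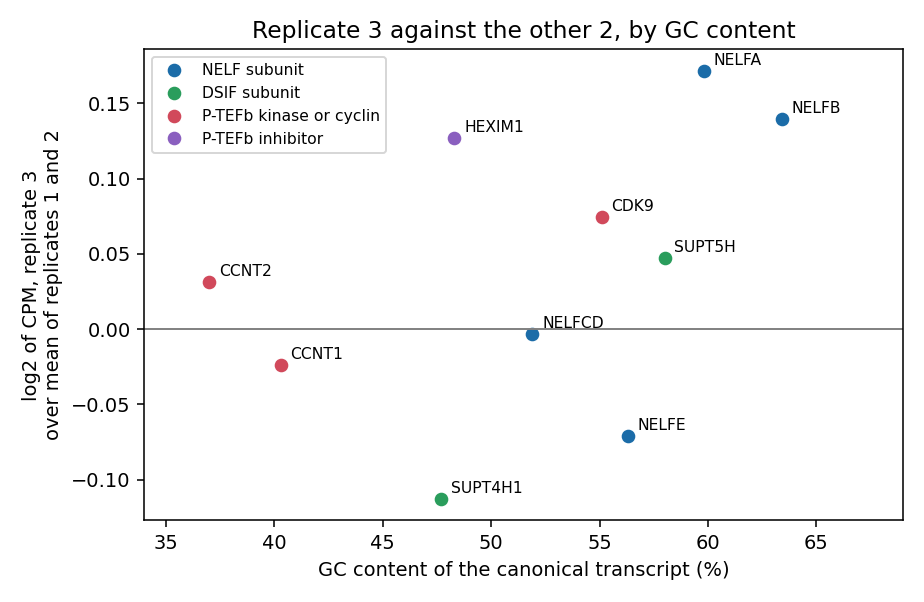
Log2 ratio of CPM in replicate 3 over the mean of replicates 1 and 2 (y axis) against the GC content of the canonical transcript in percent (x axis), 1 point for each member, colored by complex. NELFA and NELFB, at 59.8% and 63.4% GC, are at 0.17 and 0.14, and SUPT4H1, at 47.7%, is lowest at -0.11.

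Other annotated genes lie over the exons of several members, and since it is not stated whether counting used strand, their reads cannot be told apart from those of the member. For 4 members the deposited table lists a gene on the opposite strand over their exons, for 6 it lists none, and for no member does it list one on the same strand. CTSZ, a cathepsin gene, covers 97.4% of the exon length of NELFCD and had 140, 169 and 109 reads. TSPOAP1-AS1 covers 27.8% of that of SUPT4H1 and had 119, 150 and 97 reads. HEXIM2-AS1 covers 14.3% of that of HEXIM1, with 45, 73 and 46 reads, and CCNT2-AS1 covers 1.65% of that of CCNT2, with 25, 21 and 16 reads. Each of these genes had fewer reads than the member it overlaps in all replicates. How reads on shared exons were assigned is not stated. If they were left out of both genes, the member's level would be too low, and these counts would give no limit on that. This was not tested. A gene annotated on the same strand, ENSG00000285897, covers 63.7% of the exon length of SUPT4H1 and has no row in the counts used here. Processed pseudogenes, which could share reads with their parents, had almost none: CCNT2P1 and SUPT4H1P2 had 0 reads in each replicate, and SUPT4H1P1 had 2, 2 and 0. Whether reads that map to several places were counted is not stated, so these counts do not show whether the parents lost reads.

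The promoters of the members were read from RefSeq (GRCh38.p14) as windows from 250 bases before to 50 bases after the annotated start, and all 10 matched. Where RefSeq gives more than 1 start, the first listed was used. For several members, such as NELFA and SUPT5H, the GENCODE gene used for the levels begins further upstream than this start. Their GC content ran from 59.0% (CCNT1) to 82.0% (CDK9), beside a median of 62.7% over the first listed starts of 15842 protein-coding genes. It was above that median for 7 of the 10 and below it for CCNT1, SUPT5H and HEXIM1. All 10 had more CpG dinucleotides than the median of these starts, which is 22. The further start listed for CCNT1 has a GC content of 31.3%, 0 CpG and none of the motifs below. The letters CGGAAG, the core bound by ETS factors, occurred on either strand in 7 of 10 member promoters and in 25.6% of all first listed starts. GGGCGG, the GC box, occurred in 9 of 10 and in 58.5% of all, and it overlaps CGGAAG in the string GGGCGGAAG. CCAAT occurred in 3 of 10 and in 36.4% of all. TATAAA occurred in HEXIM1 alone among the members and in 9.63% of all. Motifs were searched on both strands after the sequences had been seen, a match of letters does not show that a factor binds, and no test was made.

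The upstream sequences of 3 members are shown, each as the 250 bases before the RefSeq start, 5′ to 3′ on the strand of the gene. HEXIM1 (chr17:45148225-45148474, plus strand) is shown for its TATAAA, CDK9 (chr9:127785784-127786033, plus strand) for the highest GC content and 2 matches to CGGAAG, and NELFE (chr6:31958972-31959221, minus strand) for the most matches to CGGAAG, 4 of them. The GENCODE gene of CDK9 begins at 127785679, so the bases shown for CDK9 lie within that gene. That of NELFE reaches 31959038, so part of the bases shown for NELFE lies within it. Capitals mark TATAAA in HEXIM1 and CGGAAG, or its complement CTTCCG, in the others.
HEXIM1: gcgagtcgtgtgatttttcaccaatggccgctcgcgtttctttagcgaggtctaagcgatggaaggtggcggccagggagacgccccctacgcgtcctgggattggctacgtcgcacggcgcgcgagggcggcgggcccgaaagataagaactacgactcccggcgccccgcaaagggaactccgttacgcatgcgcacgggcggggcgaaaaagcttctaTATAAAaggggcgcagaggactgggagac
CDK9: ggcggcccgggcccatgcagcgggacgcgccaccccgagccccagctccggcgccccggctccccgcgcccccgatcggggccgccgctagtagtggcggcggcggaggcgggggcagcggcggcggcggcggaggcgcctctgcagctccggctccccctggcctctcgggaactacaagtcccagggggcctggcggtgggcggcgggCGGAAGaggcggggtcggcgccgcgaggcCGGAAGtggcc
NELFE: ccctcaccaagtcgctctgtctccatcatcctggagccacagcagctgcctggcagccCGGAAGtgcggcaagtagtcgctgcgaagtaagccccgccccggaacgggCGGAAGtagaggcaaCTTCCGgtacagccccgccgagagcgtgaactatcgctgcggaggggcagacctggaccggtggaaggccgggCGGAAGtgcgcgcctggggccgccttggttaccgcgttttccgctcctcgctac

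The rest of the pausing and elongation machinery was examined through 61 further genes, grouped by complex. Of these, 42 were in the high class, 16 in the medium class, 2 in the low class and 1 had no read. Of all protein-coding genes, 28.8% were in the high class, and the counts by complex below stand beside the same share. No test was made on these counts. Their median was 62.8 TPM, beside 64.8 TPM for the members. With canonical transcripts as lengths 43 were in the high class: SKIC8, INTS6, INTS10 and CCNH entered it and INTS7, MNAT1 and POLR2J left it.

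The partners of HEXIM1 in the 7SK particle had high protein-coding transcripts and no reads on the RNA itself. LARP7, which binds and stabilizes 7SK, had 120.3, 142 and 159.9 TPM, a mean of 141 ± 19.8 TPM (SD, n = 3), and MEPCE, which caps its 5′ end, had 95, 89.1 and 90.5 TPM, a mean of 91.5 ± 3.10 TPM. LARP7 was at 326 TPM and MEPCE at 66 TPM with canonical transcripts, which moved the ratio of LARP7 to MEPCE from 1.54 ± 0.254 to 4.96 ± 0.818 (SD, n = 3). The coefficient of variation of LARP7 was 14.1%, above that of every member. MIR302CHG, host of the miR-302 microRNAs of stem cells, lies on the opposite strand and shares 1318 bases, or 16.3%, of the exon length of LARP7. Both were lowest in replicate 1 and highest in replicate 3: LARP7 had 244, 289 and 332 CPM and MIR302CHG had 158, 194 and 224 CPM. The part of MIR302CHG in the counts of LARP7 was not tested. A gene annotated on the same strand, ENSG00000289690, covers 61.3% of the exon length of MEPCE and has no row in the counts used here. RN7SK (chromosome 6) was listed at 0 reads in all 3 replicates. The table lists a further identifier, named 7SK, which shares all 328 bases of RN7SK on the same strand and was also at 0. For a gene of that length, 3 reads, the number that a count of 0 by sampling allows, would be 3.55 TPM. That value is no upper limit on 7SK RNA if its reads were assigned to neither identifier, which was not tested. These zeros are not read as a level of 7SK RNA here.

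In the super elongation complex, which carries P-TEFb to genes, 4 of 9 genes were in the high class. The scaffolds AFF1 (109 ± 2.90 TPM) and AFF4 (70.3 ± 3.89 TPM) were high, as were EAF1 (68.1 ± 1.91 TPM) and the YEATS protein MLLT1 (59.6 ± 4.13 TPM). Their relatives were lower: MLLT3 had 7.27 ± 0.346 TPM and EAF2 4.82 ± 1.65 TPM (SD, n = 3 each). Of the elongation factors of the ELL family, ELL had 17.5 ± 1.26 TPM, ELL2 14.8 ± 1.51 TPM and ELL3 1.41 ± 0.322 TPM, the latter from 7, 13 and 8 reads. These genes kept their classes with canonical transcripts as lengths, where EAF1 had 45.4 and MLLT1 37.8 TPM. ENSG00000262560 covers 62.3% of the exon length of ELL3 on the same strand and had 0 reads in each replicate. On the opposite strand PDIA3 covers 24.9% and SERF2 8%, with 3947 and 2002 reads in replicate 1. The part of these overlaps in the count of ELL3 was not tested.

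Of the BET proteins and the kinases related to CDK9, 5 of 6 genes were high. BRD2, a BET protein that binds acetylated histones, was the highest of the group at 109.7 ± 2.18 TPM. CDK13, which acts later in elongation with cyclin K, was in the medium class at 15.1 ± 0.875 TPM. Its union of exons, 24780 bases, is far longer than its canonical transcript of 9525 bases, with which it had 23.7 TPM.

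Factors that act on polymerase after its release were mostly high, 10 of 12. SUPT16H, a subunit of the histone chaperone FACT, had 299 ± 18.1 TPM, above every member. Those in the medium class were TCEA2, at 9.66 ± 0.574 TPM, an isoform of TFIIS, which rescues backtracked polymerase, and SKIC8, at 22.4 ± 0.908 TPM, a protein associated with the PAF1 complex. With canonical transcripts as lengths TCEA2 had 23.6 TPM and SKIC8 80.8 TPM, the latter then in the high class and above PAF1, CTR9, LEO1, CDC73 and RTF1, and SSRP1, the other FACT subunit, was highest at 352 TPM.

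Integrator, which cuts nascent RNA and terminates paused polymerase, had 8 of 14 subunits in the high class and 6 in the medium class, the latter INTS2 (23.2 TPM), INTS4, INTS6 (13 TPM), INTS9 (20.1 TPM), INTS10 (21.4 TPM) and INTS12 (16.1 TPM). Its median was 36.9 TPM, and its range ran from 9.97 ± 0.317 TPM (INTS4) to 83.3 ± 8.92 TPM (INTS13). With canonical transcripts the ends were INTS2 at 19.7 TPM and INTS11 at 99.7 TPM, and INTS4 had 24.7 TPM. In the kinase module of TFIIH, which phosphorylates polymerase at initiation, CDK7 had 86.7 ± 3.75 TPM and MNAT1 29.4 ± 2.00 TPM in the high class, and CCNH 19.9 ± 0.922 TPM in the medium class. The order of MNAT1 and CCNH and their classes turned with canonical transcripts, to 25.9 TPM for MNAT1 and 56.1 TPM for CCNH. RASA1, on the opposite strand, covers 12.9% of the exon length of CCNH. It had 792, 865 and 665 reads against 295, 360 and 276 for CCNH, and its part in that count was not tested.

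Of 13 genes for RNA polymerase II subunits and its associated protein POLR2M, 11 were in the high class, with a median of 103 TPM. The catalytic subunit gene POLR2A had 213 ± 3.96 TPM, and POLR2L was highest at 229 ± 20.4 TPM, whereas with canonical transcripts POLR2G was highest at 233 TPM and POLR2L had 178 TPM. POLR2M, whose protein competes with elongation factors for polymerase, had 22.7 ± 1.47 TPM and shares 20.3% of its exon length with GCOM1 on the same strand, which was counted with 0, 0 and 1 reads. POLR2F was counted with 0, 0 and 1 reads. It encodes a subunit shared by the nuclear RNA polymerases that dividing cells need, so its value is not read as a level here.

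**Figure D4:**
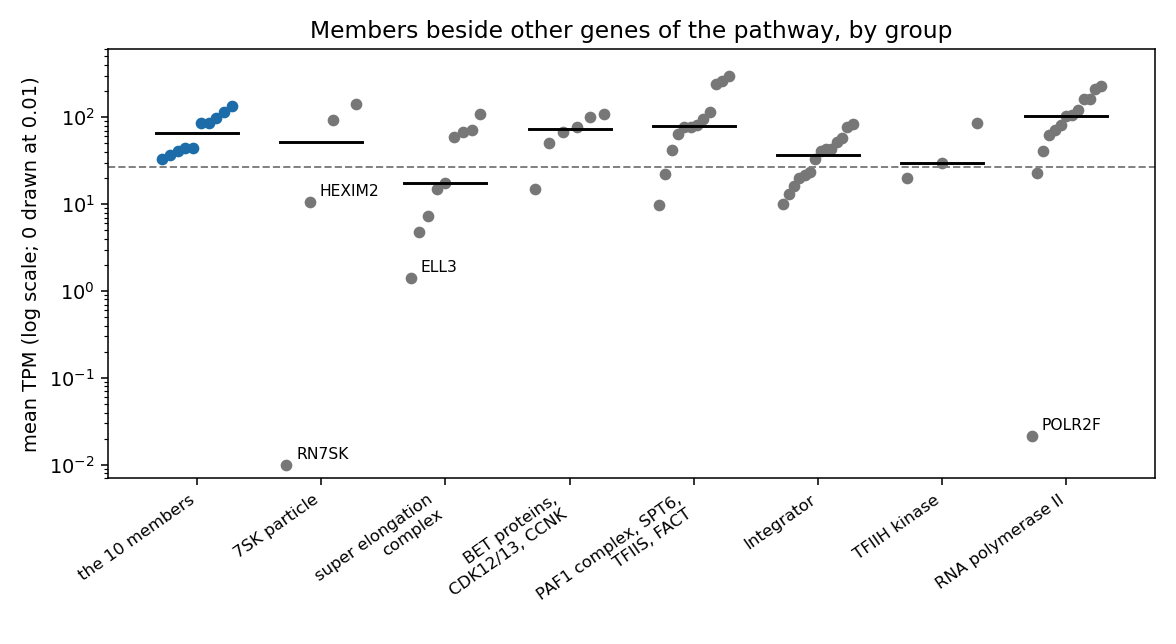
Mean TPM over 3 replicates (y axis, log scale, a value of 0 drawn at 0.01) of the 10 members (blue) and of 61 other genes of the pathway (gray) by group (x axis); each point is a gene, the black bar is the median of the group and the dashed line is the boundary of the high class. All members lie above the line, and the super elongation complex has the lowest median, 17.5 TPM; RN7SK and POLR2F stand apart at or near 0.

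A set of 6 genes often used as examples of paused promoters, whose transcripts rise when polymerase is released, had a median of 16.5 TPM. EGR1 had 30, 44 and 51 reads and a mean of 5.21 ± 1.89 TPM, FOS 9.75 ± 1.28 TPM and JUN 12.8 ± 1.16 TPM (SD, n = 3 each). MYC, at 52.9 ± 3.30 TPM, was the highest of them and in the high class. The heat shock genes HSPA1A and HSPA1B, which are near-identical copies and may share reads, had 20.2 ± 2.27 and 40.7 ± 0.457 TPM. Of the 6, 4 were in the medium class, and HSPA1B joined them with canonical transcripts as lengths, where EGR1 had 3.15 TPM and HSPA1A 12.2 TPM. Counts of transcripts do not show whether polymerase was paused on these genes.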

How the data were processed

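Total RNA of 3 untreated replicates of H9 cells was depleted of ribosomal RNA and sequenced from NEBNext Ultra II libraries. The authors trimmed reads with Trim Galore (0.4.4), aligned them to GRCh38 with TopHat2 (2.1.1) and deposited unnormalized counts of reads per gene for 58051 Ensembl identifiers. Cufflinks (2.2.1) is named for transcript abundances, which are not used here. No source read here names the tool behind the counts, its gene models or its strand setting. Totals were 10390984, 12024802 and 8655155 reads.

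Identifiers were matched to GENCODE 44 (56948 matched), and TPM was computed from the counts with the union of exons as length. Expression classes followed the study's thresholds, over protein-coding genes. Levels are means with the SD over replicates, and with 1 condition no groups were tested. Near-identical copies were searched among annotated transcripts with blastn (2.17.0; at least 80% identity over 150 bases). Python 3.11.15 and R 4.3.3 were used. edgeR (4.0.16) and DESeq2 (1.42.0) gave scaling factors only. Classes were tested on simulated data. The promoter table of RefSeq was used for sequences. Alternatives were other gene lengths, CPM, scaling factors, thresholds, thinned counts, classes over all genes, and leaving out mitochondrial genes or each replicate.

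The rule for members uses no measured value, but members and lists were chosen with earlier results of these data known. Named genes are the members, all further pathway genes outside the high class, the highest and lowest of each pathway list, direct partners of P-TEFb and genes that overlap a member. A direct partner is not reported here. Others (INTS7, INTS11, POLR2J, POLR2A, POLR2G, SSRP1, PAX6 and the like) were named after their values were seen.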

Additional observations from a re-analysis of the deposited data

How the results depend on the processing

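All 10 members were in the high class under 12 of 13 alternatives, and 8 were with genes below 1 TPM taken as nonexpressed, which put NELFA and CCNT2 below the boundary. TMM factors, DESeq2 factors and leaving out mitochondrial genes shift the members and the recomputed boundary nearly alike. Those settings could therefore hardly change a class and add little to that count. Another alternative took the quantiles over all genes, not only protein-coding ones. If the added genes are mostly weakly expressed, its boundary can only fall, and it adds little as well. The share of 28.8% of protein-coding genes belongs to the main setting, and none is given for the alternatives. For the other pathway genes only 6 alternatives were run: the other gene lengths, the threshold of 1 TPM and leaving out each replicate. Under these, 40 to 46 were in the high class, against 42. Ratios within a replicate cannot change with TMM or DESeq2 factors or without mitochondrial genes, and those rescalings say nothing on them. Gene length decided several. The NELF spread of 4.06 was 2.01 with the longest and 2.08 with the canonical transcripts and 2.04 as CPM. SUPT5H to SUPT4H1, 0.748, turned to 1.30, 1.25 and 3.08, respectively, and CCNT1 to CCNT2, 1.19, to 0.966, 0.984 and 0.965; the latter was 1.03 with counts thinned to 10%. HEXIM1 to CDK9, 0.451, was 0.373 with either transcript length and 0.544 as CPM. CDK9 to both cyclins, 1.20, was 1.22 to 1.23 with the other lengths and turned to 0.443 as CPM. CPM does not correct for length and is no measure of such ratios. Of 45 pairs of members, 32 and 31 kept their order with the longest and the canonical transcripts and 27 as CPM, and 43 with thinned counts. Without 1 replicate, the NELF spread lay between 3.99 and 4.11, SUPT5H to SUPT4H1 between 0.719 and 0.772, CDK9 to cyclins between 1.18 and 1.24, CCNT1 to CCNT2 between 1.16 and 1.20 and HEXIM1 to CDK9 between 0.446 and 0.462. Depth limits the values of genes with few reads, such as ELL3. No paired analysis was possible because all samples belong to 1 condition.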
